A study of Homo sapiens with 2 samples.

Results

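OTX2 binding was examined at 9 genes of the Hedgehog pathway, namely SHH, PTCH1, BOC, HHIP, SMO, SUFU, GLI1, GLI2 and GLI3, out of 19881 protein-coding genes. A gene's window was its GENCODE record in GRCh38 extended by 50 kb on either side, and a peak belonged to it if 1 bp or more fell in the window. At least 1 peak was found in each of the 9 windows, as in 94.1% of those of all protein-coding genes. The 9 windows held 145 of the 137412 OTX2 peaks. The genes were chosen for their place in the pathway, not for a binding value, although earlier results of these data were known. The chromatin came from D283, an established medulloblastoma cell line, grown as OTX2-expressing tumorspheres in proliferation medium with EGF and bFGF, with no knockdown or drug named for these samples. ChIP-Seq fixes proteins onto DNA with formaldehyde, shears the chromatin and recovers the bound fragments with an antibody, here one against OTX2. A single OTX2 ChIP library was compared with a single input library, made without the antibody, and both came from this line, so no value has a replicate error and no comparison between conditions was possible. A peak list says where OTX2 was recovered and does not measure the expression of the gene beside it.

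In the Hedgehog pathway a secreted ligand such as sonic hedgehog binds the membrane protein PTCH1, which without ligand holds the transmembrane protein SMO inactive. Active SMO, at the primary cilium, releases the GLI transcription factors from the inhibitor SUFU. The pathway drives the proliferation of cerebellar granule neuron precursors and is mutated in one of the molecular subgroups of medulloblastoma. The authors describe D283 as having features of other subgroups than this one. OTX2 is a homeodomain transcription factor of the forebrain, midbrain and developing cerebellum, and homeodomains of its kind recognise the motif TAATCC and the close form TAATCT.

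For each peak the deposited list gives a pileup and a fold enrichment. The pileup is the fragment coverage at the summit, scaled so that each ChIP fragment adds 0.735. The fold enrichment divides this height by the local input after adding 1 to both. The ChIP library held 61259377 fragments after duplicate removal and the input 22521186. Over all peaks the median pileup was 38.97 (range 11.03 to 338.96), the median fold enrichment 6.10 and the median length 440 bp. Intervals given below for pileups are exact Poisson 95% intervals from the fragment number, and they cover counting error only. Peak density along chromosome 7, which carries SHH, SMO and GLI3, was lower than elsewhere, with a median of 2.58 peaks per 100 kb of window over its genes against 5.12 over all genes.

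Sequences are shown for 4 promoters that lay under peaks in these windows. They show where the summits fell and whether a TAATCC or TAATCT was near. The 4 were chosen from a larger number of promoters that these peaks overlapped, of which others held a motif or none. The choice does not measure how often a motif lies under these peaks. The promoter tables of RefSeq for GRCh38.p14 give 300 bases around a transcription start site (TSS), and only bases before the start are printed, 5′ to 3′ on the strand of the promoter. SUFU shares its promoter region with ACTR1A, a dynactin subunit gene on the opposite strand, and the ACTR1A promoter at chr10:102502713-102502962 on the minus strand lay within the main SUFU peak. Its capitals mark a TAATCT at 24 bp from the peak summit.
ACTR1A: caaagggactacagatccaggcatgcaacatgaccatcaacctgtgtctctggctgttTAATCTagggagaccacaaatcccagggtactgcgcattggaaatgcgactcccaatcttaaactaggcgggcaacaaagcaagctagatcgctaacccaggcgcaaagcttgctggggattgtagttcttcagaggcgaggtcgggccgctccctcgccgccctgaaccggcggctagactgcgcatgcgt
A PTCH1 promoter at chr9:95509267-95509516 on the minus strand lay under a peak of pileup 38.97, and its capitals mark the 21 bases centred on the summit.
PTCH1: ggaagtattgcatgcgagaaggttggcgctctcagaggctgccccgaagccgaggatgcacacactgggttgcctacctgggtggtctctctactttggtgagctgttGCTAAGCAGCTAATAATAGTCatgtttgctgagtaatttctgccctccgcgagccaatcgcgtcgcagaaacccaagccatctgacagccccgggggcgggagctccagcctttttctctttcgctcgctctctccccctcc
The promoter of LOC124907881 at chr2:120737662-120737911 on the minus strand lay mostly within the peak beside the GLI2 start, which overlapped 281 bp of the 300-base window. Its capitals mark GGATTA, which is TAATCC on the other strand, at 545 bp from the summit.
LOC124907881: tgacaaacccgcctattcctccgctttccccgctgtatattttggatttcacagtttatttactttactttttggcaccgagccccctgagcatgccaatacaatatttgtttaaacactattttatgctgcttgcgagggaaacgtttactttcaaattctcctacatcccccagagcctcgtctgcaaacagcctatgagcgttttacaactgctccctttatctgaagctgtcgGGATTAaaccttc
The promoter of DDIT3, a stress-response transcription factor gene in the GLI1 window, was read at chr12:57520518-57520709 on the minus strand. Its capitals mark AGATTA, which is TAATCT on the other strand, at 16 bp from the summit.
DDIT3: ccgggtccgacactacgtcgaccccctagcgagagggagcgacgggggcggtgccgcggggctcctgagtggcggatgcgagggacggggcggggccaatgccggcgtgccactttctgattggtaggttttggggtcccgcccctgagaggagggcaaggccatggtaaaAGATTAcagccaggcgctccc
The letters TAATCC or TAATCT, on either strand, stood in 4482 of all 35116 promoter windows of this length (12.8%), of which 2234 held TAATCC. Of the Hedgehog genes' own promoters, 13 windows of 7 genes were in the tables and 0 held either motif. The ACTR1A, LOC124907881 and DDIT3 windows are therefore of other genes, and a match describes letters and not a site.

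A peak was called a TSS peak when it overlapped a region around the 5′ end of the gene record, reaching 5 kb upstream and 2 kb downstream. TSS peaks were found at 4 of the 9 genes, SUFU, GLI1, GLI2 and BOC, while 57.2% of all protein-coding genes had one. None of the 3 genes on chromosome 7 did, where the share over all genes was 37.4%. Other peaks with a summit inside the gene record were called exonic when it lay in an exon of any annotated transcript and intronic otherwise. Those with a summit outside it were called distal. Introns are numbered by the canonical transcript. Intronic peaks were present at 8 of the 9 genes, all but SMO, against 50.2% of all genes. The Hedgehog genes were long, with a median of 76.5 kb against 27.6 kb over all genes, and these counts are not adjusted for length. Exonic peaks were present at 2 genes, PTCH1 and BOC, against 15.8%. A peak inside the record or near the TSS was present at 8 genes, again all but SMO, against 74.9%. Distal peaks were present at all 9, as they were at 91.1% of all genes. By type the 145 peaks fell into 8 TSS, 4 exonic, 65 intronic and 68 distal peaks.

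In strength the peaks of these windows were close to the whole list. Their median pileup was 36.76 against 38.97, and their median fold enrichment 6.39 against 6.10. A fold enrichment of at least 10 was reached by 41 of the 145 (28.3%) and by 26.3% of all peaks. Among intronic peaks alone the share was 35.4% (23 of 65) against 27.0% for intronic peaks of all genes, and among distal peaks 20.6% (14 of 68) against 24.3%. At least 1 such peak lay in the window of 8 of the 9 genes, all but SHH, against 70% of all genes. The 9 windows held a median of 16 peaks against 7 over all genes, and this count is not adjusted for that. The local input implied by a peak's pileup and fold enrichment was at its lowest possible value, 3.99, for 42.1% of these peaks and for 26.4% of all peaks. The median local input was 4.05 against 5.00. By its definition the fold enrichment is higher on a lower local input at the same pileup. How far this bears on the medians and shares above was not tested.

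**Figure D1:**
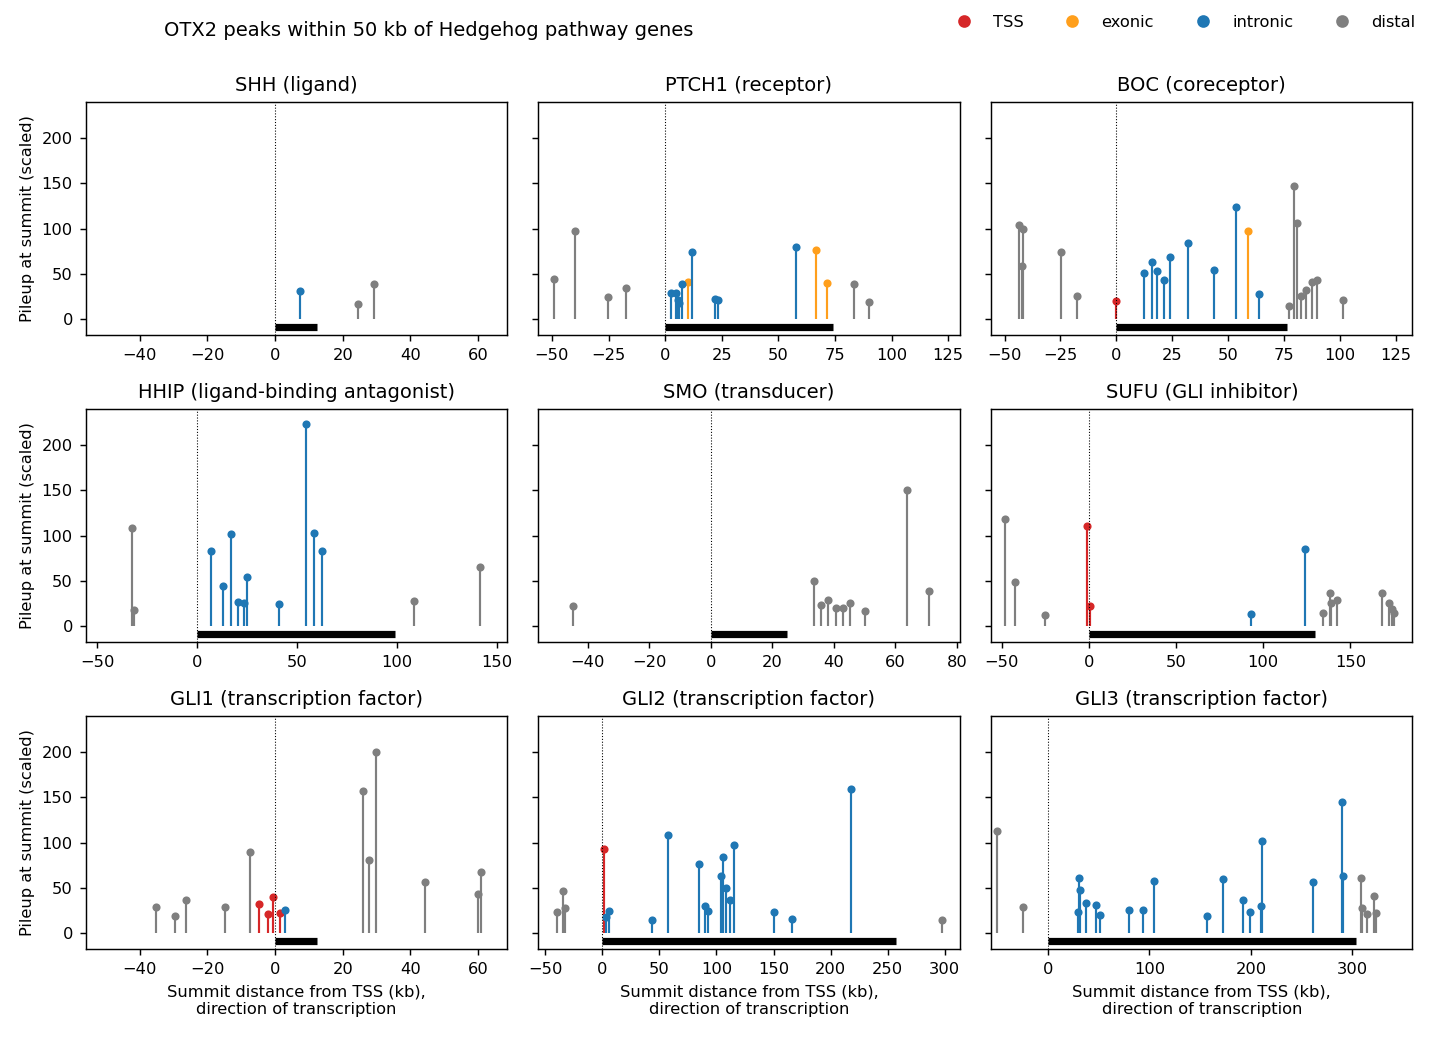
Each panel shows 1 gene, with distance of the summit from the 5′ end of its record in kb on the horizontal axis and scaled pileup on the vertical axis, black bars standing for the gene records. Stems mark peak summits coloured by type (TSS red, exonic orange, intronic blue, distal grey). SHH has 3 peaks, none above a pileup of 38.97, and SMO has none within its record, whereas BOC and GLI3 have 24 and 25.

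SHH, the ligand, had the fewest peaks of the 9 genes. Its window on chromosome 7 (record 155799980 to 155812463, minus strand) held 3. An intronic peak in intron 2, at 7.36 kb from the TSS, had a pileup of 30.88 and a fold enrichment of 6.39. Both others lay downstream of the gene, at 24.5 kb (pileup 16.18, 3.44-fold) and at 29.2 kb (pileup 38.97, 8.02-fold). All 3 stood on a local input at the lowest value. None of the 3 annotated start sites of SHH had a TSS peak. The density of 2.67 peaks per 100 kb was at percentile 24.2 of all genes, but at percentile 51.6 of the genes of chromosome 7.

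PTCH1, the ligand receptor and itself a target of the pathway, had no peak at the 5′ end of its record but many inside it. The record spans 95442980 to 95517057 on the minus strand of chromosome 9, and its window held 18 peaks, of which 9 were intronic, 3 exonic and 6 distal. The 5 peaks from 2.54 to 7.66 kb into the record lay upstream of the start of the canonical transcript, with pileups of 17.65 to 38.97 and no fold enrichment above 7.67. The one at 7.66 kb is the peak over the PTCH1 promoter printed above, with its summit 132 bp upstream of that promoter's start. PTCH1 has 23 annotated start sites, and 17 of them had a peak in a region of the same extent, 14 within 1 kb. The call that PTCH1 lacks a TSS peak therefore holds for the 5′ end of the record alone.

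The higher PTCH1 peaks lay deeper in the gene or outside it. The peak with the largest fold enrichment was in intron 17, at 57.8 kb, with a pileup of 79.41 and 16.1-fold. An exonic peak at 66.6 kb, which lies in intron 20 of the canonical transcript, had a pileup of 75.73 (15.4-fold). A peak in intron 2 at 11.9 kb had 74.26 (14.4-fold). In this order, the summits of these peaks inside the gene were 696, 492 and 674 bp from an annotated PTCH1 start site. The tallest was distal, 39.6 kb upstream, with a pileup of 97.79 (95% interval 81.9 to 116) and 15.5-fold. With 10.3 peaks per 100 kb, PTCH1 was at percentile 88.3 of all genes.

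BOC, a coreceptor that presents the ligand to PTCH1, had peaks upstream, throughout the gene and beyond its end. Its record (chromosome 3, 113211003 to 113287459, plus strand) and flanks held 24 peaks, or 13.6 per 100 kb, at percentile 96.4 of all genes. The TSS peak was one of the weaker ones, with its summit 264 bp upstream of the TSS, a pileup of 19.85 and 4.18-fold. That describes the 5′ end of the record alone. Of the 17 annotated BOC start sites, 13 had a peak in a region of the same extent, 8 within 1 kb. An exonic peak at 58.7 kb (pileup 97.06, 14.3-fold) had its summit 349 bp from an annotated start. Intron 2 held 6 peaks with pileups of 43.38 to 83.82. The highest intronic pileup, 124.26 (15.7-fold), was in intron 4 at 53.3 kb. Upstream of the gene, 5 distal peaks at 17.4 to 43.6 kb ranged from 5.35-fold to 18.9-fold, and the farthest of them was the strongest BOC peak, with a pileup of 104.41. That peak overlapped 93 bp of the promoter window of another gene, LINC02044. The 8 downstream distal peaks all lay inside CFAP44, a neighbouring gene for a cilia and flagella protein. Among them were the tallest pileup of the BOC window, 147.05 (16.5-fold) at 79.6 kb, and a second of 105.88 (18.5-fold) at 80.9 kb. A fold enrichment of at least 10 was reached by 10 of the 24, the most of any of the 9 genes.

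HHIP, a membrane protein that binds and sequesters hedgehog ligands, carried the tallest peak of all. This peak, in intron 4 at 54.4 kb (chr4:144700157-144700938), had a pileup of 223.52 from 304 fragments (interval 199 to 250) and was 20.4-fold over a local input of 10.0. Intron 4 held 7 of the 10 intronic peaks, with pileups from 24.26 to 223.52. Another 2 of them exceeded 10-fold, at 58.4 kb (pileup 102.94, 17.3-fold) and at 16.8 kb (102.2, 14.7-fold). HHIP had no TSS peak at the 5′ end of its record, the nearest peaks being 31.5 kb upstream and 6.67 kb downstream of it. Of the 8 annotated HHIP start sites, however, 2 had a peak within 1 kb. The summits of the intron 2 peak (pileup 82.35) and the intron 7 peak (83.09) were 356 and 525 bp from an annotated start. Of the 2 upstream peaks, one at 32.8 kb had a pileup of 108.09 and 15.6-fold. The local input under HHIP peaks had a median of 6.0, above the 5.00 of all peaks, and one peak at 12.8 kb stood on a local input of 12.0. All 14 HHIP peaks also lay inside a second, overlapping gene record, ENSG00000285713.

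**Figure D2:**
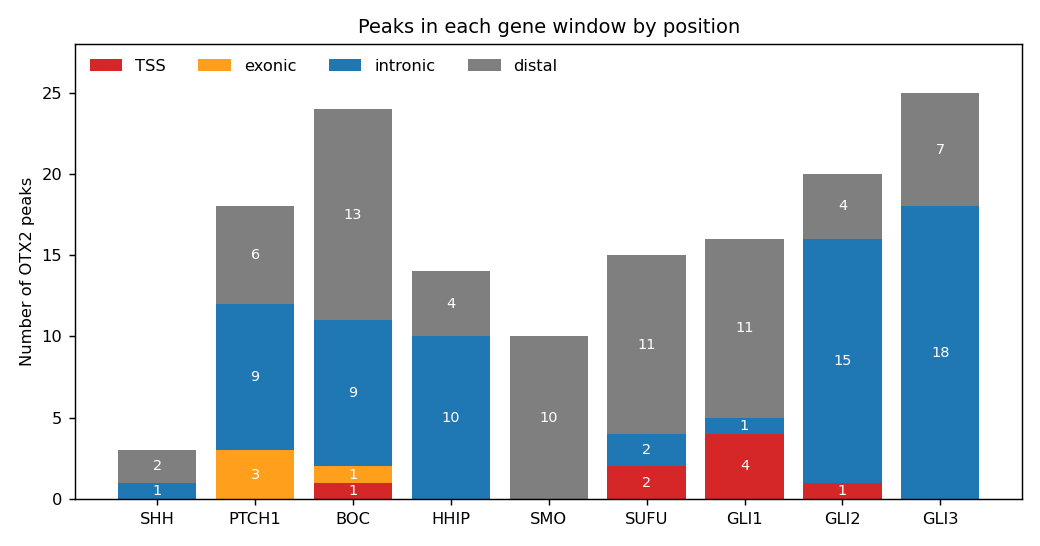
For each gene the number of TSS, exonic, intronic and distal peaks is shown as stacked bars, with the number of peaks on the vertical axis. The bars run from 3 peaks at SHH to 25 at GLI3, and 10 of 10 SMO peaks are distal.

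SMO, the signal transducer that PTCH1 restrains, had 10 peaks in its window and 0 in its record. The record spans 129188633 to 129213545 on the plus strand of chromosome 7. The nearest peaks lay 44.6 kb upstream and 33.4 kb downstream of the TSS, which left 78.0 kb around the TSS without a peak, and none of the 5 annotated start sites had a TSS peak. The upstream peak was in the TSS region of TSPAN33. Of the 9 downstream peaks, 7 had their summit inside AHCYL2, the next gene, and 3 lay in its TSS region. The strongest was 63.7 kb from the SMO TSS, inside AHCYL2 (chr7:129251083-129253096), with a pileup of 150.73 (interval 131 to 173) and 29.1-fold, the second largest fold enrichment among the 9 genes. The other downstream peaks were mostly low, so that the median over all 9 was 4.77-fold. The density of 8.01 per 100 kb, at percentile 75.9 of all genes and 96.9 of the chromosome 7 genes, thus came wholly from outside the gene.

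SUFU, the inhibitor that holds GLI proteins in the cytoplasm, had its main peak at the promoter it shares with ACTR1A. The peak (chr10:102502029-102503981) had its summit 1097 bp upstream of the SUFU TSS, with a pileup of 110.29 from 150 fragments and 12.4-fold. The summit was 163 bp upstream of the ACTR1A start, within the sequence printed above, so this peak cannot be given to one of the 2 genes. A smaller TSS peak lay 452 bp downstream of the SUFU TSS (pileup 22.06, 3.84-fold). Within the gene there were only 2 further peaks, in intron 6 (pileup 13.23, 2.85-fold) and in intron 11 (84.56, 10.7-fold). The other 11 of its 15 peaks were distal. The tallest, 48.0 kb upstream in the TSS region of C10orf95, had a pileup of 118.38 and 7.02-fold over a local input of 16.0, the highest under any of the 145 peaks. Downstream, 8 peaks, most of them at TRIM8 or ARL3, stayed at or under 7.43-fold.

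GLI1, the activator form whose transcription is a common readout of the pathway, had the most TSS peaks and the densest window. Its record on chromosome 12 (57459785 to 57472268, plus strand) and flanks held 16 peaks, or 14.2 per 100 kb, at percentile 97.2 of all genes. The 4 TSS peaks were of low to middling height. Their summits lay 4799, 2083 and 567 bp upstream and 1596 bp downstream of the TSS, with pileups of 32.35, 21.32, 39.70 and 22.06. The fold enrichments in the same order were 5.04, 4.10, 8.16 and 4.62. Of these 4 peaks, 3 had their summit inside the upstream gene INHBE, and a single intronic peak, in intron 1, had 2.60-fold.

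The strong peaks of the GLI1 window lay outside the gene, among its neighbours. The largest fold enrichment of all 145 peaks was 33.5, at 29.9 kb downstream of the GLI1 TSS (chr12:57489329-57490130), with a pileup of 199.99 from 272 fragments (interval 177 to 225). It was at percentile 99.1 of all peaks by fold enrichment. Its summit was inside MARS1, the methionyl-tRNA synthetase gene, and in the TSS region of ARHGAP9. Peaks of 14.9-fold at 26.1 kb and 13.9-fold at 27.8 kb stood beside it. The peak over the DDIT3 promoter printed above, at 60.7 kb, had a pileup of 66.91 and 12.4-fold. On the upstream side the strongest was at 7.48 kb, beside INHBE, with 11.3-fold. Distance alone does not tie any of these to GLI1.

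GLI2, the main activator of the pathway at its onset, was the gene with the strongest TSS peak. Its summit lay 1501 bp downstream of the TSS, in intron 1 (chr2:120736688-120737892), with a pileup of 92.64 from 126 fragments and 18.8-fold. The peak began 1.065 kb downstream of the TSS, so a region of 1 kb on either side missed it. It also overlapped the LOC124907881 promoter window described above. Over the 9 genes the TSS peaks had a median of 4.83-fold, against 5.31-fold for TSS peaks of all genes. The GLI2 record is long (120735623 to 120992653 on chromosome 2, plus strand), and 15 of its 20 peaks were intronic. Intron 2 held 10 of them between 84.8 and 166 kb, of which 5 reached 10-fold, the highest being 17.0-fold at 106 kb (pileup 83.82). The tallest was in intron 4 at 218 kb, with a pileup of 158.82 and 16.0-fold. At 5.60 peaks per 100 kb its density was near the middle of all genes, at percentile 54.6.

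GLI3, whose processed form is the main repressor of the pathway, had 25 peaks but 0 at its TSS. The record on chromosome 7 (41960949 to 42264100, minus strand) carried 18 intronic peaks, spread over introns 1, 2, 3, 4, 10 and 12. No peak lay within 24.8 kb upstream or 29.8 kb downstream of the TSS. The strongest was in intron 12 at 289 kb, with a pileup of 144.85 from 197 fragments and 24.3-fold, and the next among the intronic peaks had 17.1-fold, in intron 4 at 211 kb. A peak of 22.9-fold (pileup 113.23) overlapped the upstream end of the window with its summit at 50.2 kb, just outside it. Of the 10 annotated start sites of GLI3, 1 had a peak nearby, 36.4 kb into the gene. The 6.20 peaks per 100 kb were at percentile 60.8 of all genes and at percentile 90.3 of those on chromosome 7.

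**Figure D3:**
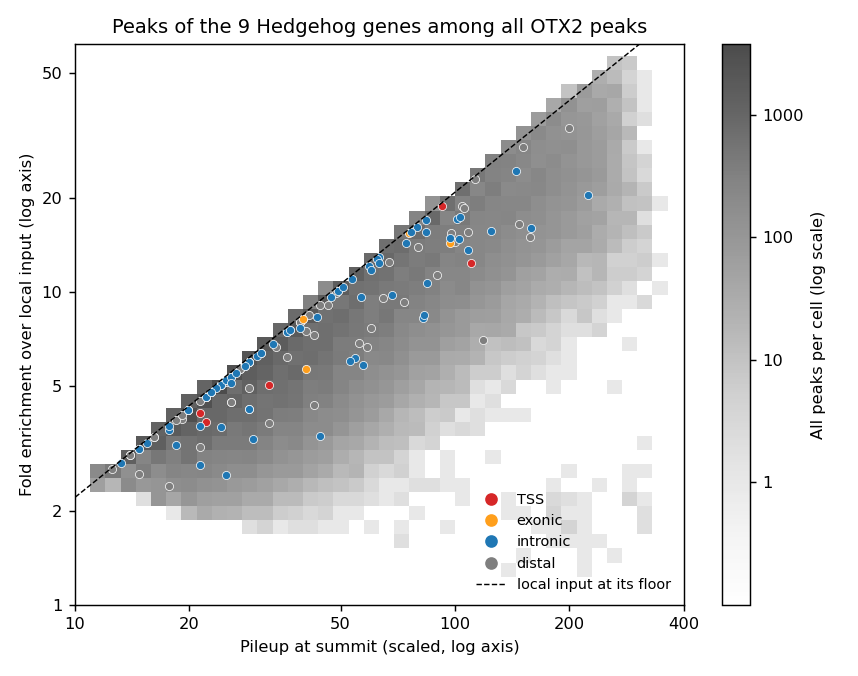
Pileup at the summit and fold enrichment over local input are plotted on log axes for the peaks of the 9 genes (points coloured by type) over all peaks (grey cells, darker with more peaks). The dashed line marks peaks on the lowest local input. The 33.5-fold GLI1 peak and the 29.1-fold SMO peak are the highest by fold enrichment, and the HHIP intron 4 peak, with a pileup of 223.52, is the tallest.

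Ordered by their tallest peak, the genes ran HHIP (223.52), GLI1 (199.99), GLI2 (158.82), SMO (150.73), BOC (147.05), GLI3 (144.85), SUFU (118.38), PTCH1 (97.79) and SHH (38.97). The 95% counting intervals of neighbours in this order overlapped in 7 of 8 pairs. The exception was PTCH1 and SHH, whose interval ran from 29.2 to 51.0. Each value is the maximum of a window, and windows held from 3 peaks (SHH) to 25 (GLI3). The intervals do not cover this choice of the tallest peak. By fold enrichment the strongest peak was distal at 4 genes, intronic at 3 and at the TSS at 2, SUFU and GLI2. The tallest peak was also the strongest by fold enrichment at 5 of the 9.

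**Figure D4:**
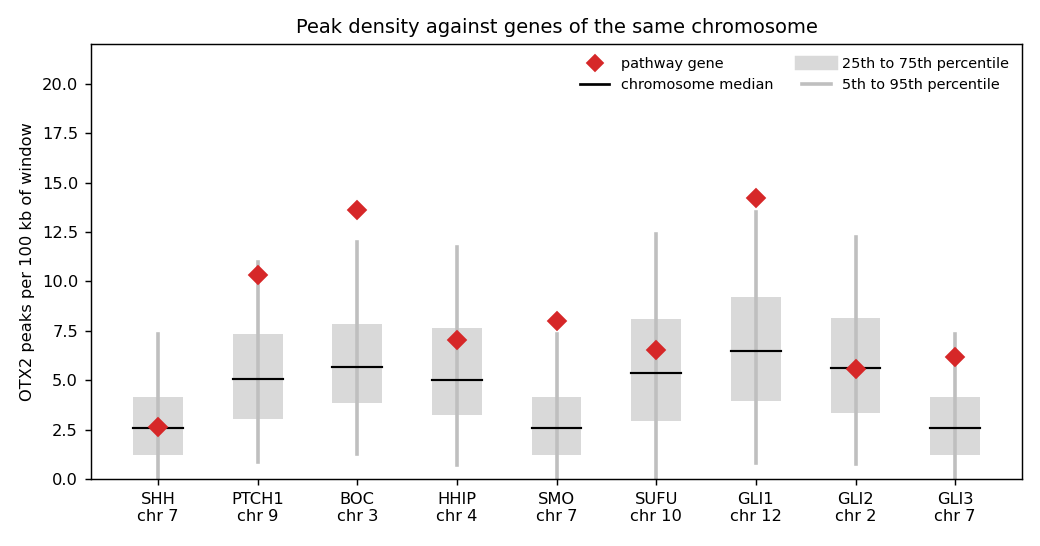
The vertical axis gives OTX2 peaks per 100 kb of window, with 1 column per gene. Red diamonds are the Hedgehog genes, and black lines, boxes and whiskers give the median and the percentiles, as named in the legend, of the protein-coding genes on the same chromosome. GLI1, BOC and PTCH1 stand highest, at 14.2, 13.6 and 10.3, while SHH, at 2.67, lies near the median of chromosome 7, 2.58.

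Per 100 kb of window, 8 of the 9 genes were above the median of all genes and 1, SHH, was below it. The median was 7.03 for the 9 genes and 5.12 for all. Among genes of the same chromosome, SHH was at percentile 51.6 and GLI2 at percentile 49.9, both near the middle. The others were at percentile 62.7 (SUFU) or above. Of the 68 distal peaks, 34 had their summit inside another protein-coding gene and 17 lay in the TSS region of one, while 24 lay at no other such gene. With any annotated transcript start in place of the 5′ end of the record, 7 of the 9 genes had a TSS peak against 66.6% of all genes, and SHH and SMO remained without one.

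The other genes of the pathway were taken from a list of 28, and 20 of them had a TSS peak, beside the 57.2% of all protein-coding genes given above. Counted at any annotated transcript start, 22 of the 28 had a TSS peak, against 66.6% of all genes. Of the other ligands, IHH had one (7.39-fold) and DHH had none. Among the genes that modify or release the ligand, HHAT had a TSS peak (5.19-fold). DISP1 and SCUBE2 had none at the 5′ end of the record, but each had a peak in the same region around another annotated start. The coreceptor genes LRP2, GAS1 and CDON all had one, with LRP2 the strongest at 10.9-fold (pileup 97.06), ahead of GAS1 (7.13-fold) and CDON (5.06-fold). At the cilium, EVC and EVC2, neighbours on opposite strands, shared a peak of 13.2-fold, STK36 and GPR161 had 5.51-fold and 2.88-fold, and the kinesin gene KIF7 had none.

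The 4 kinase genes that mark GLI proteins for processing all had a TSS peak, from 5.39-fold at CSNK1A1 to 7.93-fold at GSK3B. So did the 3 genes for parts of the ubiquitin ligases that act on GLI proteins, BTRC (17.6-fold, pileup 86.76), CUL3 (16.1-fold, 79.41) and SPOP (6.03-fold). Among 8 genes often used as pathway targets, 4 had a TSS peak. CCND2 was the strongest, with a pileup of 98.53 and 17.5-fold at 32 bp from its TSS, followed by FOXM1 (14.6-fold), MYCN (8.38-fold) and CCND1 (3.40-fold). BCL2, ATOH1, FOXF1 and NKX2-2 had none, and NKX2-2 was the only one of the 28 with no peak in its window at all.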

How the data were processed

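OTX2-bound DNA was measured in 1 ChIP library and 1 input library of D283 tumorspheres. Reads had been aligned by the authors with bowtie2 2.2.4 against GRCh38. They called narrow peaks with MACS2 2.1.0.20140616 at a q-value cutoff of 0.05, keeping 1 fragment per position, and state that blacklisted regions were masked. The deposited pileup is a signal, namely scaled fragment coverage at the summit. The deposited fold enrichment is a ratio over the local input, 1 being added on both sides. The authors' −log10 columns hold p-values and q-values. The ChIP library held 84980793 fragments and the input 32292980 before duplicate removal, and the ChIP library was 2.72 times as deep after it.

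Gene records came from GENCODE release 44. The annotation file is placed on GRCh37 and notes the original GRCh38 position of 1633539 of its 1650930 exon entries. Entries without one were left out, and no coordinate was converted. Percentiles count the genes with a lower value plus tied genes in equal parts. Fragments were read back from pileups (whole within 0.02 fragments for 100% of peaks). The peak counting was checked on simulated peaks, where 200 of 200 genes matched. The tools were matplotlib 3.10.9 for figures, scipy 1.17.1 for intervals, and numpy 2.4.6 with pandas 2.3.3 under Python 3.11.15 for counting.

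The genes named are the 9 members, 28 other pathway genes, and genes whose record or TSS region holds a peak of a member. One listed gene was left out of the counts and is not reported here. The members and lists were chosen with earlier results of these data known. The sequence under other peaks was not analysed here, since the genome sequence at hand was GRCh37 and the peaks are on GRCh38. As alternatives, higher q-value and fold thresholds, summits in place of whole peaks, other window sizes and every transcript start were tried. RefSeq gene records, and dropping peaks whose local input reached 3 times the lowest value, were chosen after seeing the data.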

Additional observations from a re-analysis of the deposited data

How the results depend on the processing

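With 1 library per group, no replicate could be left out. No paired analysis was possible because each group had 1 library and the counts come from no test. The number of Hedgehog genes with a TSS peak moved from 4 to 7 when any annotated transcript start was used. The median density fell from 7.03 to 4.46 peaks per 100 kb with peaks of at least 5-fold, where fewer peaks are counted. The total of 145 peaks ranged from 98 with that threshold to 144 with summits in the window, and was 110 with 20 kb flanks and 203 with 100 kb flanks. The gene counts for TSS, intronic and distal peaks stayed within 1.5 times their main values under the other settings. RefSeq gene records gave 145 peaks, and 143 remained once peaks of high local input were dropped. Both settings were chosen after seeing the data. Single genes moved more, since with peaks of at least 5-fold SMO kept 3 of 10 peaks and SUFU 8 of 15. With 20 kb flanks SMO had 6, SUFU 8 and GLI1 10 of 16, and with 100 kb flanks SMO had 17, SUFU 30, GLI1 26 and HHIP 24 against 14. A region without a peak may still hold OTX2 below the calling threshold.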

Other observations

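The SHH TSS lay in one of the longest stretches of chromosome 7 without a peak, an interval that was examined after its values were seen. The stretch between the 2 flanking peaks measured 773 kb, while the median distance between neighbouring peaks on this chromosome was 15.9 kb and 5 of 4338 distances were longer. SHH was the only protein-coding gene with its TSS in it. From 50 kb upstream of SHH to LMBR1, whose intron is known to hold a limb enhancer of SHH, there was 1 peak summit in 806 kb, at 6.39-fold. The LMBR1 record held 3 summits in 224 kb, the strongest at 12.4-fold with a pileup of 61.03. The peak list alone does not show how well this stretch was covered by reads.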
